A study of Mus musculus with 4 samples.

Results

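Guanylate-binding proteins (GBPs) and immunity-related GTPases (IRGs) were measured in mouse bone marrow-derived macrophages that lacked or carried Cdk5r1, at rest and after bacterial lipopolysaccharide (LPS). The set held 10 genes: the GBP genes Gbp2, Gbp3, Gbp5 and Gbp7, and the IRG genes Irgm1, Irgm2, Igtp, Iigp1, Tgtp1 and Ifi47. Every probe whose accession belonged to one of these symbols was used, which gave 12 probes for 10 of the 23570 genes measured, with 2 probes each for Irgm1 and Iigp1. All 12 passed the filter on dim probes.

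The groups were knockout cells under LPS, wildtype cells under LPS, knockout cells under basal conditions and wildtype cells under basal conditions. Each of the 4 two-colour arrays set CDK5R1 knockout RNA (Cy5) against wildtype RNA (Cy3), 2 under LPS and 2 under basal conditions, which the labels call biological replicates without naming the animals. Both genotypes carry the strain label B6.129S4-Cdk5r1tm1Lht/J, and the mice were male and 6 weeks old. Their marrow cells had GM-CSF, a myeloid growth factor, at 25 ng/ml over 7 days of culture, and the stimulus was Escherichia coli LPS at 100 ng/ml for 6 h. The protein product of Cdk5r1, p35, activates the kinase CDK5. The comparison asked how its loss changes gene expression in resting and in activated macrophages. The dyes were not swapped, so a probe's dye effect and the genotype cannot be told apart in a knockout to wildtype ratio. A constant dye effect cancels in LPS against basal within a channel and in the difference of ratios between conditions. One that varies with intensity need not cancel, and the intensity of these genes changed with LPS.

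GBPs and IRGs are families of interferon-inducible GTPases that give macrophages resistance to intracellular bacteria and parasites. They gather on the vacuoles in which such pathogens live and help to break them open, and GBPs also expose bacterial LPS to the noncanonical inflammasome. In mice the IRG proteins fall into effectors (Iigp1, Tgtp1 and Ifi47), which load onto pathogen vacuoles, and regulators (Irgm1, Irgm2 and Igtp), which sit on the cell's own membranes and keep the effectors off them. LPS induces both families largely through the interferon that the macrophage itself makes.

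The genes lie in clusters. In the RefSeq annotation of assembly GRCm38.p6, Gbp5, Gbp7 and Gbp3 are neighbours on chromosome 3, followed by Gbp2b and Gbp2. Igtp lies between Gm12250 and Irgm2 on chromosome 11, which also carries Irgm1, Tgtp1 and Ifi47. RefSeq promoter windows, from 250 bases before to 50 bases after an annotated start of transcription, were matched for 9 of the 10 genes (10 windows, 2 of them for Gbp3). The 200 bases before the start are printed for the IRG genes of chromosome 11, because the 3 members lower in resting knockout cells are among them. Capitals mark matches, on either strand, to GAAA followed by any 2 bases and a further GAAA, the core of the interferon-stimulated response element bound by IRF factors.
Irgm2, chr11:58214777-58214976 (+ strand): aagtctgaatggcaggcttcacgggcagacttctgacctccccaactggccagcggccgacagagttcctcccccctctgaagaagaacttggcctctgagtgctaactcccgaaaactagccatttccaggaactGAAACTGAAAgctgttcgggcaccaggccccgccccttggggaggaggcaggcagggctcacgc
Igtp, chr11:58199356-58199555 (+ strand): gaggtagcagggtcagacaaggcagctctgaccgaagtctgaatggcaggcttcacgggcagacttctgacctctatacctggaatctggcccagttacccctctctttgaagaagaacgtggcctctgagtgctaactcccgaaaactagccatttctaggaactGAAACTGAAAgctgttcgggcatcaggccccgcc
Tgtp1, chr11:48992247-48992446 (- strand): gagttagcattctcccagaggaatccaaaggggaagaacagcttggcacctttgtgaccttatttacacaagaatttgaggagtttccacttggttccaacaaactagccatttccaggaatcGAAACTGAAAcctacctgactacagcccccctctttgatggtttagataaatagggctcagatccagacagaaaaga
Irgm1, chr11:48871421-48871620 (- strand): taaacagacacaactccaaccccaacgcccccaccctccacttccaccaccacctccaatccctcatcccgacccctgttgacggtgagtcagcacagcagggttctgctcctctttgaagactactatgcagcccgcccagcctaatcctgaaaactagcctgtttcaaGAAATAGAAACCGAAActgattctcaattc
Ifi47, chr11:49076387-49076586 (+ strand): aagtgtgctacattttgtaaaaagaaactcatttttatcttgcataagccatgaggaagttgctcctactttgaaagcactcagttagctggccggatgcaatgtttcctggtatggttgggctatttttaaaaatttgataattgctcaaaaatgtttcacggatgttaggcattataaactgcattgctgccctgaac
The same stretch is printed for Gbp2, which was higher in knockout cells under LPS, and for Gbp5, the GBP gene with the largest response to LPS.
Gbp2, chr3:142620463-142620662 (+ strand): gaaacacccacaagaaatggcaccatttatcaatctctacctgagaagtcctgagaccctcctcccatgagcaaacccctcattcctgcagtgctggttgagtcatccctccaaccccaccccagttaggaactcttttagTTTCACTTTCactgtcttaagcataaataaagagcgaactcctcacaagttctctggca
Gbp5, chr3:142496734-142496933 (+ strand): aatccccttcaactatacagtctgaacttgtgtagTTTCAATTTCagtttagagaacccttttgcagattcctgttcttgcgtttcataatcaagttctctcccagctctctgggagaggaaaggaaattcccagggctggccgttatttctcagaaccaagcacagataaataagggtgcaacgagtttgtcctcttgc

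The promoters of Irgm2 and Igtp were nearly the same sequence, with 247 of 264 aligned bases identical (93.6%) in windows of 300 bases. The response element core was found in 8 of the 9 genes with a window, against 3.99% of 27025 genes with a window of that length. Ifi47 was the gene without a match, and the second start of Gbp3 had none either. In Gbp3 and Irgm1, 2 matches overlapped. The NF-kappaB consensus was found in Gbp5 alone, against 5.14% of all genes. A match describes these letters and does not show that a factor binds there, and the near-identical windows of neighbouring genes are not independent.

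**Figure D1:**
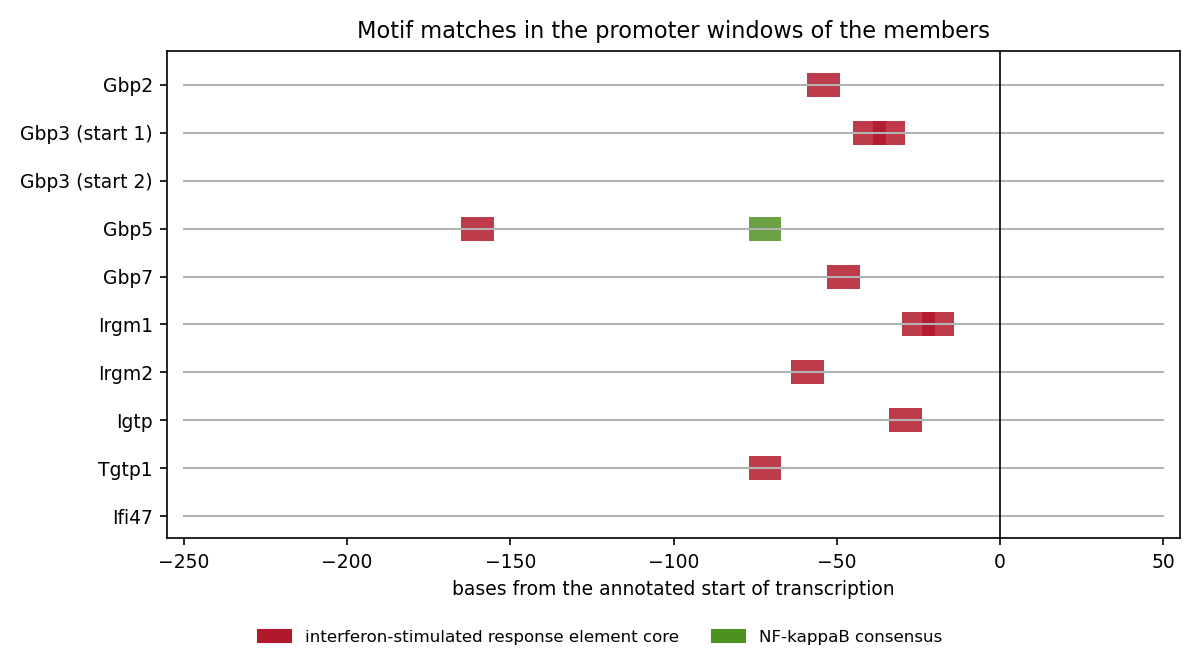
Motif matches in the promoter windows of the 9 member genes with a RefSeq window, by distance in bases from the annotated start of transcription. Of these genes, 8 hold a response element core (red), which lies farthest from the start in Gbp5, while Gbp5 alone holds an NF-kappaB match (green) and Ifi47 holds neither motif.

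As a check of the labelled cell type, 8 of 8 measured macrophage marker genes exceeded background in every channel of the 4 arrays, and so did 6 of 6 dendritic cell marker genes, in these GM-CSF cultures. The check is a weak one, since 22336 of all 39429 probes did so too. All measured neutrophil markers and all 4 eosinophil, mast cell and basophil markers also did. Of the macrophage markers, 3 were lower in knockout cells under LPS (Mrc1, Cd14 and Fcgr1) and 2 at rest (Mrc1 and Lyz2), and none was higher (under LPS 1 and at rest 0 at an unadjusted p under 0.05). Of the dendritic cell markers, Dpp4 was higher (1.26 ± 0.12, adjusted p = 0.0017) and Itgax lower (-0.59 ± 0.07, adjusted p = 0.0042) under LPS, and none was called at rest (1 higher and 1 lower at an unadjusted p under 0.05). The log2 ratio of the targeted gene, Cdk5r1, was below 0 on every array, at -2.55 and -2.29 under LPS and -0.37 and -0.59 under basal conditions, with knockout signal still well above background. The sources used here do not say which exons were deleted, so this checks the labels only in part. Most neutrophil marker genes, though not all, were lower in knockout cells. Over 7 measured markers the summed linear level was 91855 to 96073 in knockout and 269189 to 294158 in wildtype cells under LPS. Under basal conditions it was 48808 to 79055 in knockout and 106567 to 169542 in wildtype cells. In each condition 5 of the 7 were lower in knockout cells, and all 7 exceeded background in every channel. The other markers, Elane and Mpo, were not called. Elane had ratios of -0.10 and -0.28 under LPS and -0.0037 and -0.32 at rest. Mpo had 0.65 and 0.13 under LPS, where 1 marker was higher at an unadjusted p under 0.05, and -0.19 and -0.18 at rest. S100a8 and S100a9 had the highest levels of the 7 and made up most of each sum. Over 4 eosinophil, mast cell and basophil markers the sum was 4849 to 6239 in knockout and 11902 to 18098 in wildtype cells under LPS, and 1791 to 3222 and 4855 to 6378 under basal conditions. The 4 genes did not move together. The eosinophil genes Prg2 and Epx were lower in knockout cells in both conditions, by -1.60 and -1.69 under LPS and -1.50 and -1.42 at rest. Cpa3, of mast cells and basophils, was higher in both, at 0.57 under LPS and 0.81 at rest, and the basophil gene Mcpt8 was higher at rest (0.73) and did not pass under LPS (0.27). T cell, natural killer cell and B cell marker sums lay closer together, at 9144 to 9347, 3052 to 3091 and 426 to 516 in knockout cells under LPS, against 8030 to 8141, 2843 to 2875 and 404 to 458 in wildtype cells. Under basal conditions they were 7149 to 8316, 2204 to 2360 and 348 to 378 in knockout and 7393 to 8079, 2167 to 2337 and 343 to 358 in wildtype cells. In the knockout channel only 2 of 5, 2 of 5 and 2 of 4 of these markers were well above background on all 4 arrays. In the wildtype channel 4, 3 and 4 were. Cd4 was the brightest T cell marker, at log2 levels of 12.88 and 12.90 in knockout cells under LPS. These sums thus rest on few genes and say little about such cells. The part of other cells in the results below was not tested, and in such cultures fewer cells of a type and less RNA per cell cannot be told apart.

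LPS raised all 10 genes in both genotypes (limma adjusted p of at most 0.0034 in knockout and 0.0031 in wildtype cells). In knockout cells 19.1% of all 28635 probes were called higher and 23.0% lower, and in wildtype cells 18.2% and 23.6%. With each channel scaled to its 75th percentile instead, the median of all probes moved to 0.35 in knockout and 0.34 in wildtype cells, and the calls split into 45.1% higher and 17.6% lower, and 45.5% and 17.7%. The member genes' median log2 change was 3.97 in knockout and 3.59 in wildtype cells, against all-probe medians of -0.02 and -0.01, and under the other scaling it was 4.51 and 3.84. All 10 stayed higher in both genotypes under each of the 12 alternatives computed for each of these 2 comparisons.

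Gbp5, which promotes inflammasome activation in macrophages, had the largest change among the GBP genes. Its log2 level was 15.83 and 15.89 in knockout cells under LPS and 16.08 and 16.15 in wildtype cells under LPS, against 10.44 and 9.85 in basal knockout cells and 10.31 and 9.94 in basal wildtype cells. No LPS sample overlapped a basal one. The change was 5.72 ± 0.22 in knockout and 5.98 ± 0.15 in wildtype cells (log2, SE, n = 2 arrays per condition), or 52.6-fold and 63.2-fold. Gbp2, which coats parasite vacuoles, had log2 levels of 16.73 and 17.06 in knockout cells under LPS and 16.41 and 16.80 in wildtype cells under LPS. In basal cells it stood at 13.88 and 12.89 in knockout and 13.66 and 12.78 in wildtype cells, so the change was 3.51 ± 0.36 and 3.39 ± 0.33. Gbp3 rose by 3.15 ± 0.25 in knockout and 3.32 ± 0.22 in wildtype cells. Gbp7, which takes part in assembling the NADPH oxidase at phagosomes in mice, rose by 1.93 ± 0.20 and 2.14 ± 0.10.

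The regulators moved within a narrow range. Their changes ran from 4.42 (Irgm2) to 4.80 (Igtp) in knockout cells and from 3.79 (Irgm2) to 4.22 (Igtp) in wildtype cells. The log2 level of Irgm1, needed for resistance to mycobacteria in mice, was 14.89 and 14.66 in knockout and 14.85 and 14.70 in wildtype cells under LPS, against 10.54 and 10.09 in basal knockout and 10.93 and 10.48 in basal wildtype cells. Both Irgm1 probes gave like changes, 4.46 and 4.58 in knockout and 4.07 and 3.99 in wildtype cells. Among the effectors, Ifi47 rose by 4.73 ± 0.25 in knockout and 4.17 ± 0.19 in wildtype cells.

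The 2 probes of Iigp1, an effector that loads early onto parasite vacuoles, disagreed in size. The brighter one rose by 3.48 ± 0.23 in knockout and 3.30 ± 0.36 in wildtype cells and the dimmer one by 5.74 ± 0.17 and 5.21 ± 0.36. The dimmer probe was well above background on only 1 of 2 basal arrays in the knockout channel. Under LPS the brighter Iigp1 probe also had the widest spread between replicates of any member gene in wildtype cells, with log2 levels of 12.43 and 12.95 in knockout and 12.02 and 12.97 in wildtype cells. Tgtp1 rose by 2.18 ± 0.14 in knockout and 1.85 ± 0.13 in wildtype cells, and its signal cannot be separated from that of its nearly identical copy Tgtp2 by probe name alone. The Tgtp1 probe was dim at rest, with median intensities of 91 and 131 in knockout and 63.5 and 86 in wildtype cells. With Agilent's processed signals Tgtp1 rose by 3.44 in knockout and 2.96 in wildtype cells. The brightest probe assigned to Tgtp2 rose by 6.91 ± 0.33 and 6.44 ± 0.27, while the other Tgtp2 probe, well above background on 2 of the 4 arrays in the knockout channel, rose by 1.84 ± 0.11 and 1.67 ± 0.09. The size of the response of this gene pair depended on the probe and, for Tgtp1, on the processing.

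**Figure D2:**
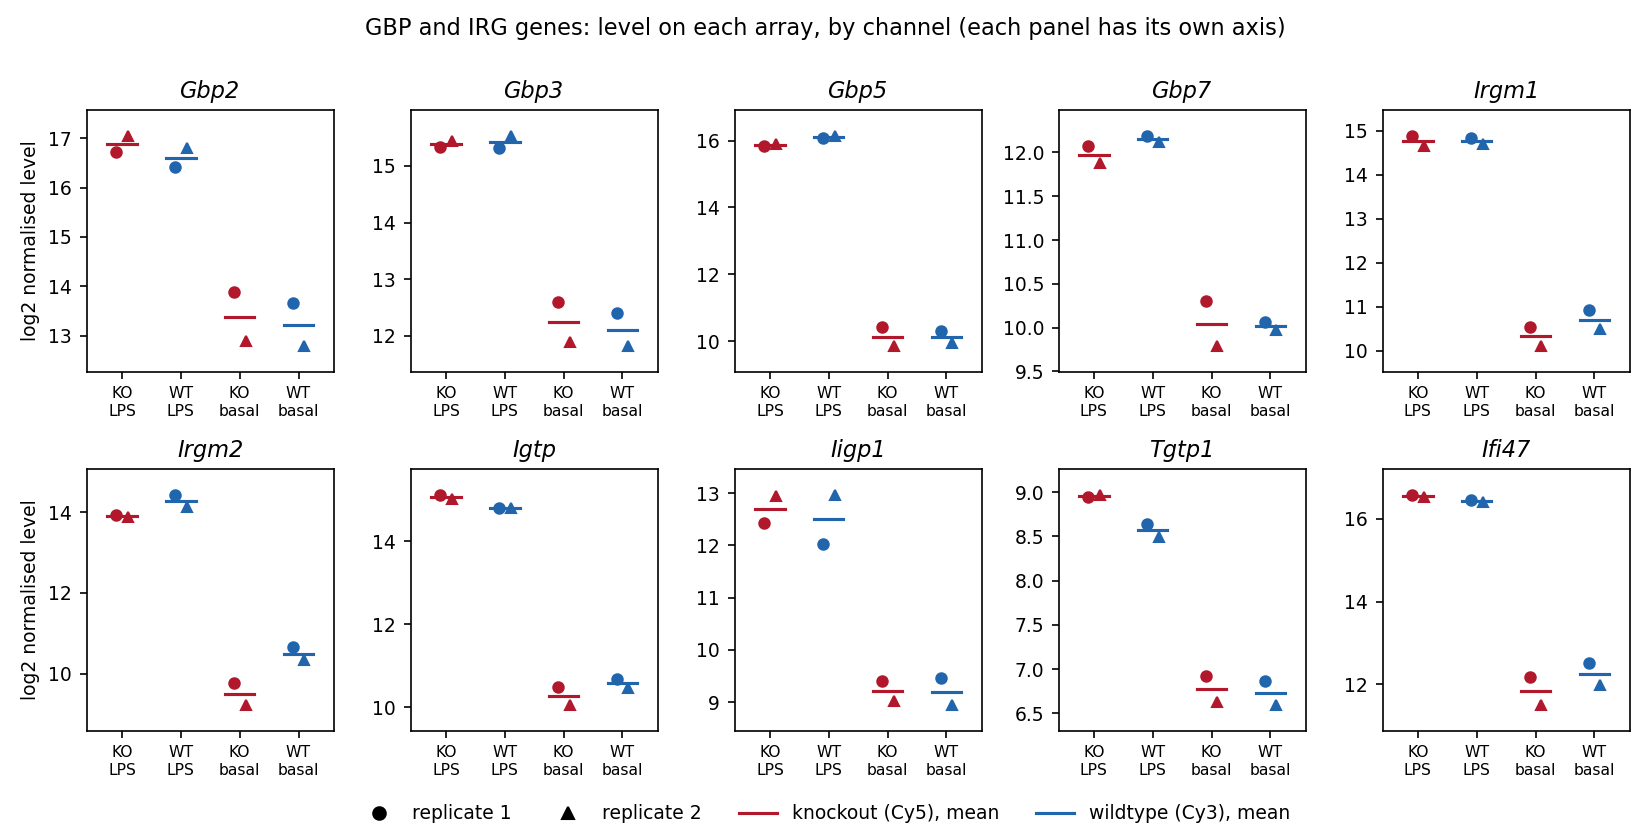
Normalised log2 level of each member gene on every array, from its brighter or only probe, by genotype and condition, with bars at the mean of 2 arrays (knockout, Cy5, red; wildtype, Cy3, blue). In every panel the LPS samples lie above the basal samples without overlap, and replicate 1 (circles) lies above replicate 2 (triangles) in both genotypes at rest.

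**Figure D3:**
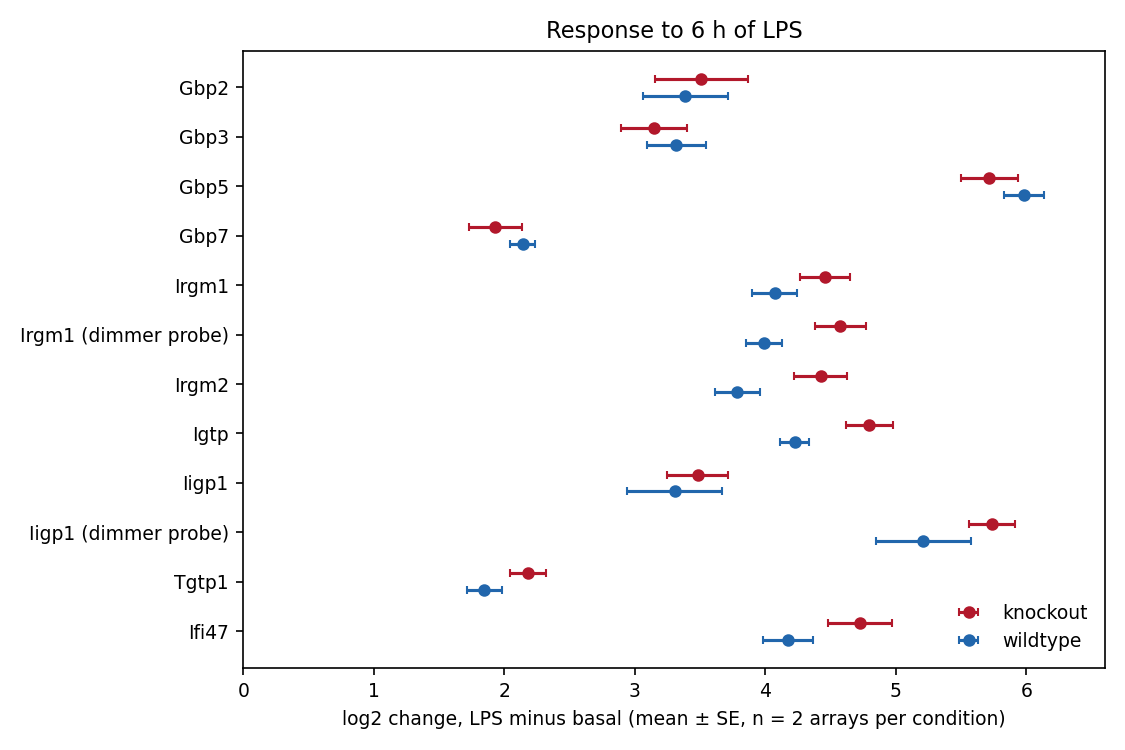
Log2 change under LPS against basal for all 12 probes in knockout (red) and wildtype (blue) cells, with bars of 1 SE (n = 2 arrays per condition). Gbp5 changed by 5.72 and 5.98, and for each IRG probe the knockout point lies to the right of the wildtype point.

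The resting level of these genes also differed between the 2 basal replicates, in the same direction in both genotypes. In knockout cells 10 of 10 genes were higher on basal replicate 1 than on basal replicate 2, by a median of 0.53 on the log2 scale (0.29 to 0.99). In wildtype cells 10 of 10 were higher on basal replicate 1 as well, by a median of 0.41 (0.089 to 0.88). The same difference over all 28635 probes had a median of 0.0049 in knockout and -0.00062 in wildtype cells. Other interferon-stimulated genes behaved alike, with 19 of 20 higher on replicate 1 in knockout cells (median 0.56) and 20 of 20 in wildtype cells (median 0.68). Under LPS the replicates had no such order, with 5 of 10 member genes higher on replicate 1 in knockout cells and 6 of 10 in wildtype cells. With 75th percentile scaling the basal counts were again 10 of 10 in both genotypes, with medians of 0.49 and 0.43. The 2 channels of an array share its hybridisation, so the culture and the array cannot be told apart, and a shift common to both channels cancels in the ratio within an array.

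At rest, 3 IRG genes were lower in knockout cells: Irgm2, Irgm1 and Ifi47. No member gene was higher (limma, all adjusted p-values over 28635 probes, and 0 of 10 higher and 4 lower at an unadjusted p under 0.05, which 19.1% of all probes reached in either direction). Over all probes 3.09% were called higher and 1.42% lower. With median centring of each array in place of loess these shares were 15.0% and 2.57%, and the members' calls were then Gbp2 higher and Irgm2 lower. The median log2 ratio of the 10 genes was 0.01, close to the all-probe median of -3.0e-05.

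Irgm2, a regulator that resides at the Golgi and limits inflammasome activation by LPS in mice, had the largest knockout effect of the set. Its log2 level was 9.76 and 9.21 in basal knockout cells, against 10.65 and 10.33 in basal wildtype cells, and the genotypes did not overlap. The log2 ratio was -0.89 and -1.12 on the 2 arrays, with a mean of -1.01 ± 0.10 (SE, n = 2), 0.497-fold, adjusted p = 0.0025. It stayed called lower under all 13 alternatives, at -1.12 to -0.85. Ifi47 had basal log2 levels of 12.17 and 11.49 in knockout and 12.52 and 11.99 in wildtype cells. These ranges overlap between arrays, while the ratio within an array was -0.34 and -0.51, with a mean of -0.43 ± 0.07 (SE, n = 2, adjusted p = 0.025).

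The basal levels of Irgm1, given above, overlapped between the genotypes, while its ratios within an array were -0.38 and -0.39, with a mean of -0.39 ± 0.07 (SE, n = 2, adjusted p = 0.028). Its dimmer probe gave -0.10 and -0.28, a mean of -0.19 that did not pass (adjusted p = 0.26). The calls of Ifi47 and Irgm1 were less stable than that of Irgm2. Leaving out any 1 of the 4 arrays ended both, with adjusted p-values of 0.054 to 0.20 for Ifi47 and 0.065 to 0.16 for Irgm1, and Agilent's processed signals and the authors' deposited table of ratios ended both as well. Igtp, the third regulator, whose promoter is nearly that of Irgm2, had ratios of -0.19 and -0.42 with a mean of -0.31 ± 0.08 that did not pass (adjusted p = 0.11).

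The other 6 genes had basal ratios between 0.01 and 0.16 from their brighter or only probe. The GBP genes lay between 0.01 (Gbp5) and 0.16 (Gbp2), and the effectors Iigp1, the only member on chromosome 18, and Tgtp1 stood at 0.01 and 0.05. By family, the median log2 ratio was -0.39 for the 3 regulators, 0.01 for the 3 effectors and 0.08 for the 4 GBP genes. By chromosome, it was -0.39 for the 5 genes of chromosome 11, where Cdk5r1 also lies, and 0.08 for the 4 of chromosome 3. Whether these families or chromosomes differ was not tested. Of the related genes on chromosome 11, Gm12250, a further IRG gene beside Igtp, was lower by -0.70 ± 0.08 (adjusted p = 0.0058) and the brightest probe of Tgtp2 by -0.56 ± 0.08 (adjusted p = 0.0091), while the other Tgtp2 probe gave 0.04.

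Under LPS, 2 member genes were higher in knockout cells, Gbp2 and Tgtp1, and none was lower. At an unadjusted p under 0.05 there were 3 higher and 2 lower, while 28.3% of all probes reached that level in either direction. Over all probes 6.65% were called higher and 4.83% lower, and 18.7% and 3.53% with median centring, which called 7 of the 10 genes higher. The median log2 ratio of the 10 genes was 0.06, against -0.003 over all probes. Tgtp1, which marks parasite vacuoles, had log2 levels of 8.95 and 8.97 in knockout and 8.64 and 8.50 in wildtype cells, without overlap. Its ratio was 0.30 and 0.47 on the 2 arrays, 0.39 ± 0.07 (SE, n = 2, adjusted p = 0.021), and it was called under 9 of 13 alternatives. The brightest Tgtp2 probe gave -0.09 ± 0.08 (adjusted p = 0.50).

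Gbp2 had ratios of 0.32 and 0.25 under LPS, and its levels, given above, overlapped between the genotypes. The mean of 0.29 ± 0.07 (SE, n = 2) passed narrowly (adjusted p = 0.049) and under 5 of 13 alternatives. Leaving out LPS replicate 1 or 2 ended both calls, with adjusted p-values of 0.29 and 0.18 for Gbp2 and 0.092 and 0.18 for Tgtp1, and leaving out a basal array gave 0.051 for Gbp2. The dimmer Irgm1 probe was also called higher, at 0.40 ± 0.08 (adjusted p = 0.024), while the brighter one stood at 0.00 ± 0.07 (adjusted p = 0.996), so the probes of this gene disagreed. Irgm2 had log2 levels of 13.92 and 13.89 in knockout and 14.43 and 14.12 in wildtype cells under LPS, without overlap, and ratios of -0.51 and -0.23. Its mean of -0.37 ± 0.10 missed the threshold (adjusted p = 0.055), and 4 of 13 alternatives called it lower. With median centring it moved to -0.0042 (adjusted p = 0.98). Gbp5 and Gbp7 had ratios of -0.25 ± 0.08 and -0.18 ± 0.11 (adjusted p = 0.089 and 0.33). Igtp, which helps to protect mice from the parasite Toxoplasma, had log2 levels of 15.12 and 15.02 in knockout and 14.80 and 14.80 in wildtype cells, without overlap, and a ratio of 0.27 ± 0.08 that did not pass (adjusted p = 0.087).

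**Figure D4:**
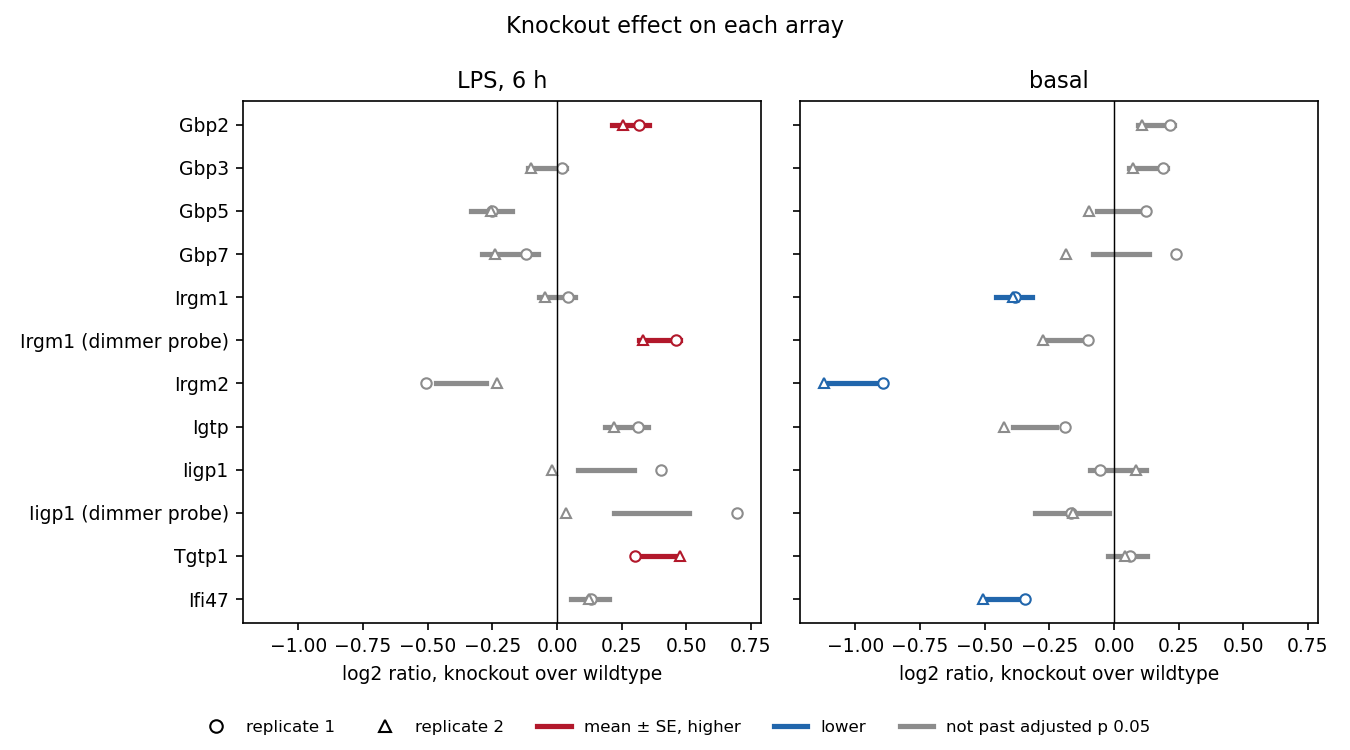
Log2 ratio of knockout over wildtype for all 12 probes under LPS (left) and under basal conditions (right), with open symbols for the 2 arrays and bars of the mean ± 1 SE. Irgm2 lies at -1.01 at rest and -0.37 under LPS, and the GBP genes lie near 0 at rest.

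The difference between the knockout effects under LPS and at rest asked whether the response to LPS depended on Cdk5r1. No member gene passed (limma, smallest adjusted p = 0.13), with 0.269% of all probes called higher and 0.133% lower. At an unadjusted p under 0.05 there were 5 genes with a larger and 1 with a smaller response in knockout cells, while 10.1% of all probes reached that level. All 6 IRG genes had positive differences, from 0.18 (Iigp1) to 0.64 ± 0.14 (Irgm2, SE), with Igtp at 0.57 ± 0.12 and Ifi47 at 0.55 ± 0.10. Of the 4 GBP genes, 3 had negative ones, from -0.27 ± 0.11 (Gbp5) to -0.17 (Gbp3), and Gbp2 stood at 0.12. The 95% interval was 0.31 to 0.96 for Irgm2 and -0.53 to -0.00072 for Gbp5 before adjustment. The difference between the families was not tested.

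Other interferon-inducible GTPases, of which 11 of 16 listed genes were measured, held 2 genes lower at rest, Tgtp2 and Gm12250, and none higher (1 at an unadjusted p under 0.05). Over all probes 1.42% were lower at rest and 3.09% higher. Tgtp2 counts here by its brightest probe, since its other probe gave 0.04 ± 0.08 at rest (adjusted p = 0.81) and 0.21 ± 0.08 under LPS (adjusted p = 0.13). Under LPS, Gm12250 was lower by -0.47 ± 0.08 (adjusted p = 0.016) and Gbp8 higher by 0.49 ± 0.10 (adjusted p = 0.027). These were 1 of 11 each way, where 4.83% of all probes were lower and 6.65% higher. Gbp2b, the neighbour of Gbp3 and Gbp2, had a second probe that was higher in knockout cells in both conditions, by 0.91 ± 0.11 under LPS (adjusted p = 0.0040) and 0.90 ± 0.11 at rest (adjusted p = 0.0063). Its brightest probe gave 0.56 and 0.33, which did not pass. LPS raised 7 of the 11 in each genotype, and 19.1% of all probes in knockout and 18.2% in wildtype cells.

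Of 22 measured genes of interferon signalling, the transcription factor gene Irf7 (-0.61 ± 0.07, adjusted p = 0.0045) and Usp18, which damps the type I interferon receptor (-0.79 ± 0.08, adjusted p = 0.0025), were lower in knockout cells at rest, where 1.42% of all probes were lower. Under LPS the transcription factor gene Irf8 was higher (0.57 ± 0.10, adjusted p = 0.014), where 6.65% of all probes were higher. Ptpn2, a phosphatase gene of this list, had 3 probes, of which a dimmer one was called higher in both conditions, at 0.30 ± 0.07 under LPS (adjusted p = 0.037) and 0.36 ± 0.07 at rest (adjusted p = 0.035). The brightest gave 0.18 and 0.29 and the third -0.0098 and 0.026, which did not pass. LPS raised 16 of the 22 in knockout and 17 in wildtype cells and lowered Ifngr1, a chain of the interferon gamma receptor, by 2.70 and 2.57. Of all probes it raised 19.1% and 18.2%. Irf7 rose most, by 6.32 in knockout and 5.82 in wildtype cells. The interferon genes Ifng and Ifnb1 also rose under LPS. Ifnb1 rose by 4.47 ± 0.72 in knockout and 4.62 ± 0.65 in wildtype cells (limma adjusted p = 0.0099 and 0.0063). Ifng rose by 3.74 ± 0.25 and 3.35 ± 0.14 (adjusted p = 0.0012 and 0.00043). Each was well above background on only 2 of the 4 arrays in each channel. Ifnb1 log2 levels were 5.96 to 6.04 at rest and 9.38 to 11.64 under LPS, so the size of its change rests on a resting level near background.

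The nearest contrast to the members was a list of 20 other interferon-stimulated genes, antiviral effectors for the most part. At rest, 16 of these 20 were lower in knockout cells, with a median of -0.67, where 3 of the 10 GBP and IRG genes were lower, with a median of 0.01. Over all probes 1.42% were lower. Rtp4 (-1.90 ± 0.15, adjusted p = 0.0011) and Ifi44 (-1.90 ± 0.08, adjusted p = 8.56e-05) had the most negative ratios of the list, and Oas2, an activator of RNase L, stood at -1.37 ± 0.09 (adjusted p = 0.00041). Under LPS 1 was higher and 3 were lower, with a median of -0.15, where 6.65% of all probes were higher and 4.83% lower. These counts take the brightest probe of each gene, and in 2 genes whose brightest probe was lower another probe was called higher. The brightest probe of Xaf1 was lower, by -0.95 ± 0.08 under LPS and -0.58 ± 0.08 at rest. Its other probe was higher, by 6.56 ± 0.09 under LPS (adjusted p = 1.2e-06) and 4.27 ± 0.09 at rest (adjusted p = 2.1e-05). For Cmpk2 the brightest probe was lower at rest (-0.43 ± 0.07, adjusted p = 0.019), and the other probe was higher under LPS (1.30 ± 0.12, adjusted p = 0.0013). The difference between conditions was called for 5, all higher, where 0.269% of all probes were called higher. LPS raised all 20, with a median of 5.57 in knockout and 4.64 in wildtype cells. It raised 19.1% and 18.2% of all probes. Whether the lists differ was not tested.

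**Figure D5:**
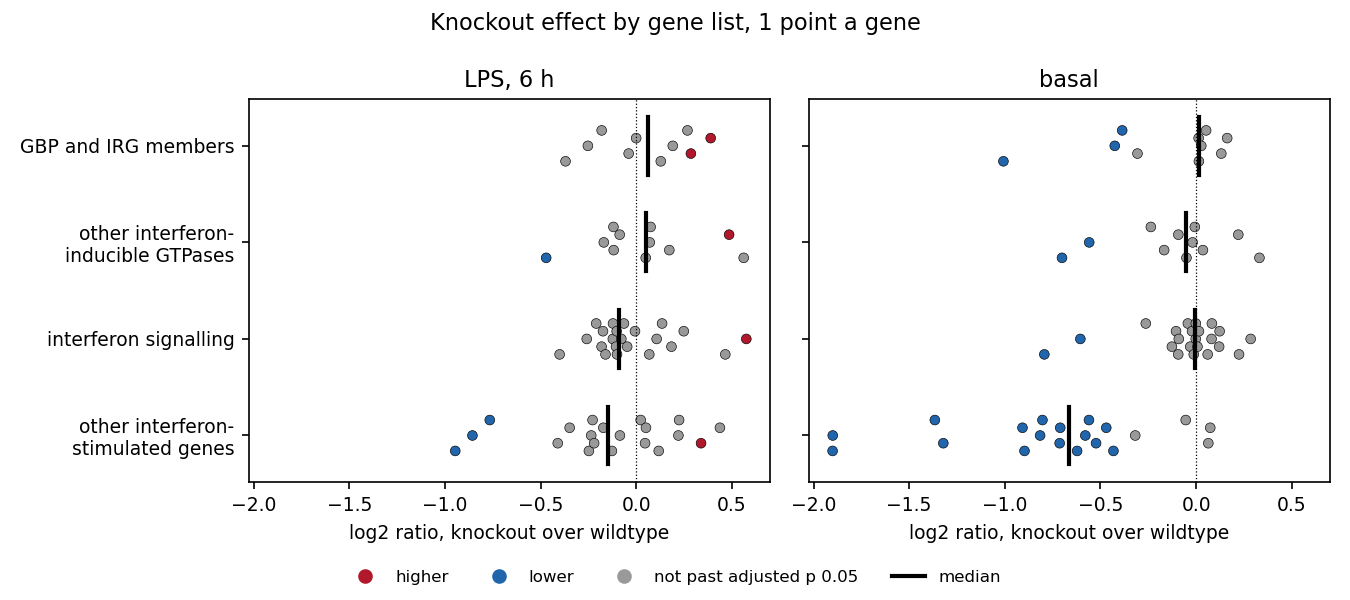
Log2 ratio of knockout over wildtype under LPS (left) and at rest (right) for the 10 member genes, 11 other interferon-inducible GTPases, 22 interferon signalling genes and 20 other interferon-stimulated genes, 1 point a gene, with the median as a bar. At rest the bar of the other interferon-stimulated genes lies at -0.67 and that of the members at 0.01.

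Of 14 autophagy proteins and ubiquitin factors that act with these GTPases at vacuoles, Gabarap was lower in knockout cells at rest (-0.55 ± 0.10, adjusted p = 0.029). Under LPS Atg16l1 was higher (0.41 ± 0.08, adjusted p = 0.024) and Atg7 lower (-0.35 ± 0.08, adjusted p = 0.034). The other Atg7 probe gave -0.28 ± 0.08 and did not pass (limma adjusted p = 0.081). Over all probes 6.65% were higher and 4.83% lower under LPS, so 1 of 14 each way lay near these shares. LPS moved this list both ways, with 5 higher and 5 lower in knockout cells and 5 and 4 in wildtype cells, from Atg7 (-2.48 and -2.34) to the ubiquitin ligase gene Trim21 (3.86 and 3.76). Over all probes LPS raised 19.1% and lowered 23.0% in knockout cells, and 18.2% and 23.6% in wildtype cells. Of 8 genes of the noncanonical inflammasome and its products, 2 were lower in knockout cells at rest (Il18, -0.62 ± 0.09, and Pycard, -0.36 ± 0.07). Under LPS 2 were lower as well (Il1b, -0.75 ± 0.07, and Pycard, -0.46 ± 0.07). Over all probes 1.42% were lower at rest and 4.83% under LPS. Casp4, the intracellular LPS sensor, rose under LPS by 3.76 in knockout and 3.64 in wildtype cells. None of the 5 prenylation enzymes, some of which lipidate GBPs, was called in either knockout comparison (1 lower under LPS at an unadjusted p under 0.05).

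The genes whose profile was most like the members' mean were ranked by the root mean square difference of 8 log2 levels, centred on each gene's own mean, over 15976 other genes with a symbol. They were Slfn10-ps (0.087), Parp12 (0.10), Parp14 (0.11), Sp140 (0.15) and Gbp4 (0.15), which is itself a guanylate-binding protein. The 8 levels come from 4 arrays. Of the members, Gbp2 (0.28) and Gbp3 (0.28) lay closest to that mean and Gbp5 farthest from it (1.07).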

How the data were processed

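Gene expression was measured on 4 two-colour Agilent arrays. The deposited scanner files hold the median foreground and background intensity of each spot in both channels, from Agilent's Feature Extraction software. Its version is 11.5.1.1 by the headers, whereas the submitters' processing notes give 9.3.2.1. The authors' value table holds log2 ratios, deposited with no stated method, that follow the processed signals to within a constant per array. All arrays lay on 1 slide and came from 1 scan, per the file headers. Outlier spots (207 to 255 per array) were left out, and no probe spot was saturated. The number of arrays limits the precision.

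In limma 3.58.1 (R 4.3.3), normexp with an offset of 50 corrected the background, loess normalised the ratios and Aquantile the levels. Of 39429 probes, 28635 with at least 1 channel well above background on 2 or more arrays were kept. Accessions were matched to RefSeq symbols of assembly GRCm38.p6, and 11921 probes had none. The file headers name mm9, so gene coordinates from RefSeq are used for the promoters alone. The 5 comparisons were fitted with lmFit and eBayes, with Benjamini-Hochberg adjustment over all kept probes and a threshold of 0.05, two-sided. In counts of genes the brightest kept probe stood for a gene. The fit was tested on simulated data.

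The members and lists were chosen with earlier results of these data known. All members are described. Of a list, those that passed in a knockout comparison are named where they are few, with the ends of its LPS change. Beyond that rule, Gbp2b, Casp4, Ifng and Ifnb1 were named after their values were seen. As the animals are not named, p-values measure the spread between these arrays, which may be technical. The labels do not say that replicate numbers pair arrays, so they were not taken to do so. Deviations from the condition means of arrays with the same replicate number correlated at -0.17 for ratios. With 2 arrays per condition that value cannot settle whether the cultures were paired. Alternatives covered the background correction, normalisation, filter, choice of probe, replicate block and each array left out.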

Additional observations from a re-analysis of the deposited data

Results flagged for a closer look

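In 4 probes the knockout to wildtype ratio had opposite signs on both LPS and both basal arrays, and the difference itself did not pass in limma. The dimmer Irgm1 probe averaged 0.40 under LPS and -0.19 at rest, a difference of 0.59 (adjusted p = 0.13). Igtp averaged 0.27 and -0.31, a difference of 0.57 (adjusted p = 0.14), and Ifi47 0.13 and -0.43, a difference of 0.55 (adjusted p = 0.13). The dimmer Iigp1 probe averaged 0.36 and -0.16, a difference of 0.53 (adjusted p = 0.45). Over all probes, 2561 of 28635 (8.94%) had opposite signs in this way.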

How the results depend on the processing

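All 10 genes rose under LPS in both genotypes under every alternative run, and Irgm2 stayed lower at rest. Basal calls, 3 as reported, came to 1 with processed signals, 1 with the authors' table, 1 with the replicate block and 1 whichever array was left out. LPS calls, 2 as reported, came to 0 with processed signals, 0 with the authors' table, 7 with median centring, 1 where both channels had to be above background on all arrays, 1 with the replicate block and 0 to 2 when an array was left out. Calls in the difference, 0 as reported, came to 2 with median centring and 1 with a crossed replicate block, added after seeing the data because same-numbered arrays correlated at -0.17. The replicate block changed no LPS response call. The following values changed sign, none called before. At rest, Tgtp1 became -0.041 with processed signals and -0.040 with the authors' table, and Iigp1 -0.074 with the mean over probes. Leaving out a basal array gave Gbp5 -0.095 to 0.12, Gbp7 -0.19 to 0.24 and Iigp1 -0.054 to 0.083. Under LPS with median centring, Gbp3 became 0.45, Gbp5 0.29, Gbp7 0.017 and Irgm1 0.44, and Irgm1 became 0.20 with the mean over probes. Leaving out an LPS array gave Gbp3 -0.10 to 0.020, Irgm1 -0.046 to 0.044 and Iigp1 -0.020 to 0.40. In the difference, Gbp2 became -0.047 with processed signals and -0.046 with the authors' table, and Gbp3 0.10 and Gbp5 0.12 with median centring. Leaving out an array gave Gbp7 -0.42 to 0.0045 and Iigp1 -0.035 to 0.39. The cause was not tested. With an array left out, its condition has 1 array, which is assumed to vary like the other condition. Called shares over all probes under LPS ran from 1.74% to 13.7% when an array was left out. No slide block was run, since there was 1 slide. Signal over background limited the dimmer Iigp1 probe at rest. The Tgtp1 probe was dim at rest as well, and its LPS change was larger with processed signals.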
